A study of Homo sapiens with 4 samples.

Results

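The genes described here are 37 genes of glycolysis and of the response to low oxygen. They form a list of 17 glycolytic enzymes and 20 other hypoxia genes, chosen with earlier results of these data known. Each gene was read through the probe set that the platform annotation assigns to it alone, and where it has several, through the one with the highest mean. Such a probe set was found for 34 of the 37, out of 18417 genes so named on the array, and 32 of the 34 were bright enough to be kept, among 10373 kept genes in all. All 16 measured enzymes were kept, as were 16 of the 18 other measured genes. ANKRD37 and PFKFB4 lay below the filter of 155 intensity units on every array, and CA9 and SLC16A3 had no probe set named for them here. PGAM1 was read only by 5 probe sets that also name its copy PGAM4, so it is counted among the unmeasured.

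RNA came from monolayers of MCF12A, an immortalised line of human breast epithelium that does not form tumours, kept in DMEM/F12 with growth supplements (horse serum, insulin, hydrocortisone, epidermal growth factor, cholera toxin). Of the 4 cultures, 1 spent 1 week in 25 mM ethanol and had control 1 as its unexposed partner, and 1 spent the same time in 2.5 mM acetaldehyde and had control 2. Acetaldehyde is the first product of ethanol oxidation, and its dose was not that of ethanol, so the responses are given side by side. Each culture was read on 1 Affymetrix Human Gene 1.0 ST array, which reports 1 intensity per probe set, and the number of arrays limits the precision of every value below.

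With 1 array per arm, a single difference has no replicate check and no p-value, and the difference between the controls is the nearest measure of how far unexposed cultures lay apart. The arrays of a pair had nearly the same distribution of values, with a mean gap between ranked log2 values of 0.0398 for ethanol and control 1 and 0.0268 for acetaldehyde and control 2, against 0.270 to 0.285 between arrays of different pairs. The pairs thus look separately normalized, and control 2 minus control 1 also holds that difference in scale. Breast epithelial markers were bright, with all 7 of the 7 measured kept. Of 13 measured markers of non-epithelial cells 3 were kept, CD68, COL1A1 and DCN, while the leukocyte marker PTPRC lay between 10.3 and 15.9, below the lower quartile of each array (29.7 to 42.3). DCN, a fibroblast proteoglycan, stood at 34.6 with ethanol and 34.8 in control 1, against 187 with acetaldehyde and 177 in control 2. Fewer cells of a type and less RNA per cell cannot be told apart in such bulk RNA.

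Glycolysis splits glucose into pyruvate, which lactate dehydrogenase turns into lactate when respiration does not take it up. In low oxygen the transcription factor HIF1A escapes hydroxylation by the EGLN enzymes, is no longer degraded, and raises transcription of most glycolytic enzymes, of glucose transporters, and of genes for blood vessel growth, mitophagy and collagen processing. EGLN3 is itself one of its targets. HIF1A is controlled mainly at the level of its protein, so its mRNA is not a direct readout of its activity.

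Most glycolytic enzymes stayed close to control 1 after 1 week in ethanol, whereas 3 of the other genes were at least 2-fold apart. SLC2A3, the high-affinity glucose transporter GLUT3, and P4HA2, a catalytic subunit of collagen prolyl hydroxylase, were higher with ethanol, and EGLN3, an oxygen-sensing hydroxylase, was lower. They made up 9.38% of the 32 members, against 3.28% of all kept genes, with 2 higher (background 1.17%) and 1 lower (background 2.11%). SLC2A3 was kept only through the ethanol array, where it was high, so these shares are a description and no support. Among the 30 members above the filter on all 4 arrays P4HA2 and EGLN3 were left, 6.67% against 2.03% of the 8180 such genes, a restriction added after the data were seen. At 1.5-fold the count was 5 of 32 (15.6%, background 9.66%), adding ALDOC and LDHB. Of the 16 enzymes none reached 2-fold, 10 were lower and 6 higher (42.2% and 57.8% of all kept genes), and their median log2 difference was -0.07, against 0.05 over all kept genes. The 16 other hypoxia genes had 8 on each side of control 1, with a median of -0.02.

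**Figure D1:**
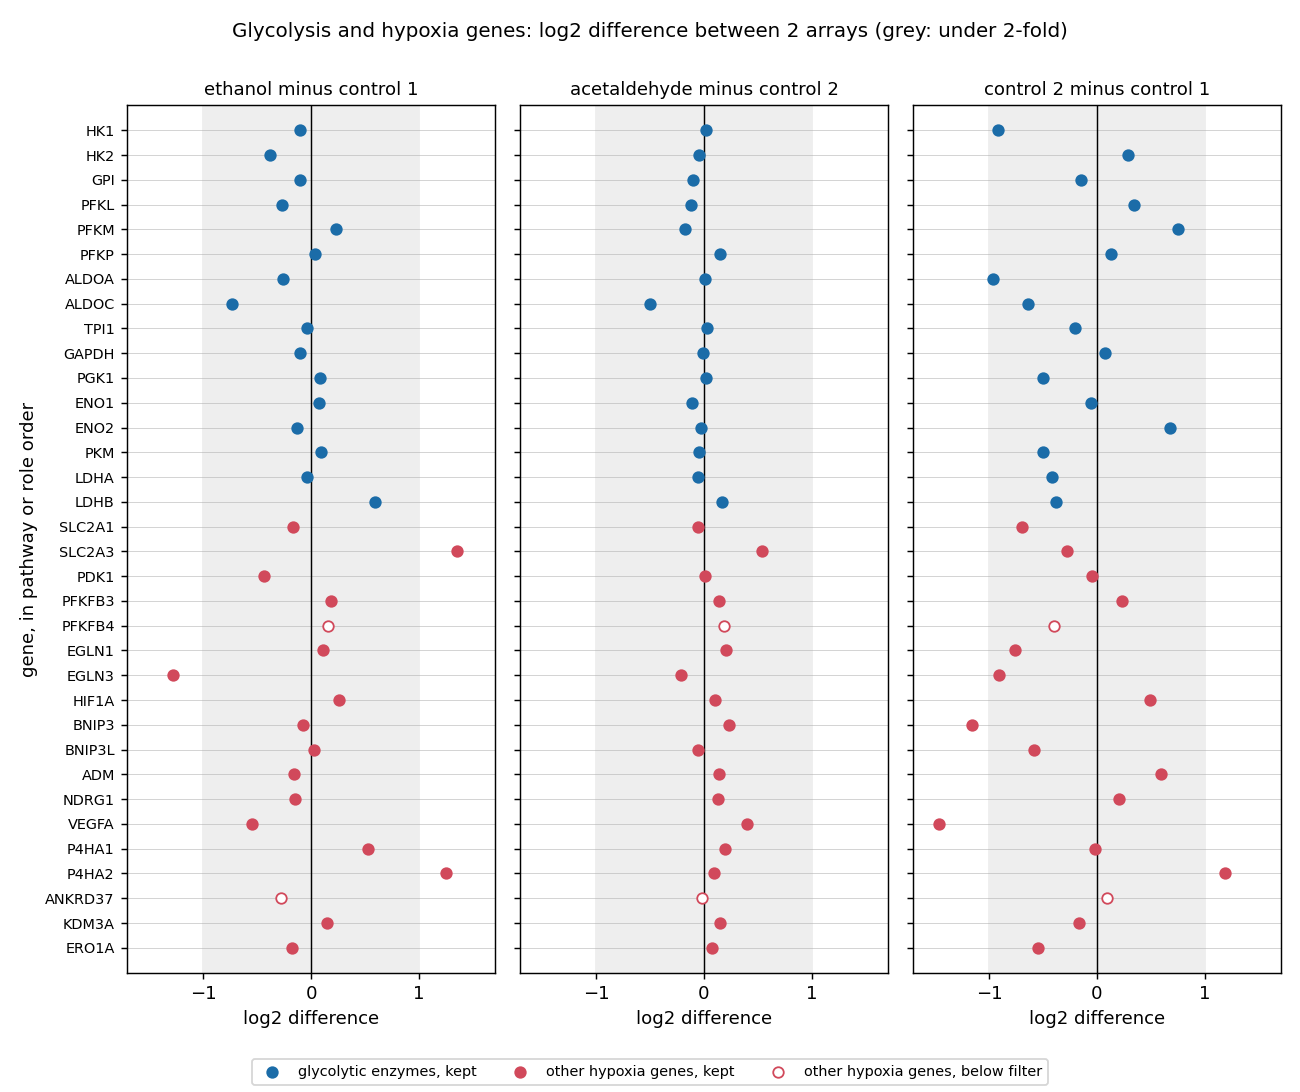
Log2 difference of each of the 34 measured genes (rows, enzymes in pathway order and then the other genes by role) in 3 comparisons of 2 arrays; filled points are kept genes, open points lie below the filter, and the grey band marks differences under 2-fold. With ethanol SLC2A3 and P4HA2 lie above the band and EGLN3 below it, no gene leaves it with acetaldehyde, and VEGFA, BNIP3 and P4HA2 leave it between the controls.

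The 3 genes differed in where the other experiment placed them. SLC2A3 (probe set 7960865) had an intensity of 303 with ethanol and 119 in control 1, and 142 with acetaldehyde and 97.7 in control 2. The ethanol array alone was above the filter, so the gene was kept only through that array, and its 2.55-fold difference rests on a dim control value; SLC2A14 is a close copy whose transcripts the probes may also read. EGLN3 (probe set 7978544) stood at 244 with ethanol against 592 in control 1, and at 273 with acetaldehyde against 315 in control 2. Control 1 was the high array for EGLN3 and the other 3 lay close together, so the 2.42-fold lower value with ethanol was set against the higher of the controls, and it was 0.37 log2 units below control 2. P4HA2 (probe set 8113981) stood at 1267 with ethanol against 532 in control 1, and at 1292 with acetaldehyde against 1211 in control 2. Here control 1 was the low array, and ethanol was 0.06 above control 2, although it was 2.38-fold above its own control.

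Along the pathway the enzyme differences with ethanol were small and of mixed direction, apart from those of ALDOC and LDHB. ALDOC (probe set 8013660), the aldolase isozyme best known from brain, had 655 with ethanol against 1090 in control 1, and 497 with acetaldehyde against 702 in control 2. It was lower in the exposed array of each pair, 1.66-fold with ethanol. Control 1 was the high array for ALDOC too, and measured from control 2 its ethanol difference was -0.10. The ubiquitous isozyme ALDOA was at -0.26 with ethanol. LDHB (probe set 7961693), the lactate dehydrogenase subunit that favours pyruvate formation, had 6929 with ethanol against 4604 in control 1, and 3955 with acetaldehyde against 3532 in control 2. Ethanol was above both controls for LDHB, whereas LDHA (probe set 7938777), the subunit that favours lactate, had 8881 with ethanol against 9118 in control 1, and 6581 with acetaldehyde against 6845 in control 2. The log2 difference with ethanol was therefore 0.59 for LDHB and -0.04 for LDHA, a gap of 0.63 between subunits of the same enzyme.

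The first, rate-setting steps also held unequal isozymes. The hexokinase HK2, the inducible form that starts glucose breakdown, was at -0.38 with ethanol and HK1 at -0.11. Of the phosphofructokinases, PFKL was at -0.27, PFKP at 0.04 and PFKM at 0.23, and PFKP turned to -0.02 when the 4 arrays were normalized together. The isomerases GPI and TPI1 were at -0.10 and -0.04, and the second TPI1 probe set was at -0.13. From GAPDH (-0.10) through PGK1 (0.08), ENO1 (0.07), ENO2 (-0.13) and PKM (0.09), the energy-yielding part of the route stayed within 0.13 of control 1. ENO2, the neuronal enolase, was dim throughout (89.1 with ethanol, 97.5 in control 1) and was kept only through its value of 156 in control 2. The 5 probe sets shared by PGAM1 and PGAM4 lay between -0.04 and 0.02.

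The other genes that feed or steer the route lay nearer to control 1 than SLC2A3. SLC2A1 (probe set 7915472), the basal glucose transporter GLUT1, had 3043 with ethanol against 3424 in control 1, and 2039 with acetaldehyde against 2114 in control 2. Its difference of -0.17 with ethanol was small beside the gap between the experiments. PDK1, which holds back the conversion of pyruvate to acetyl-CoA by inhibiting pyruvate dehydrogenase, was at -0.43 with ethanol, below both controls, and PFKFB3, which makes the strongest activator of phosphofructokinase, was at 0.19. HIF1A (probe set 7974851) had 3852 with ethanol against 3215 in control 1, and 4867 with acetaldehyde against 4523 in control 2. The HIF1A transcript was thus higher in the exposed array of each pair, by 0.26 with ethanol and 0.11 with acetaldehyde, and both of these gaps were under the 0.49 between the controls. EGLN1, the main oxygen sensor for HIF1A, was at 0.12 with ethanol.

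Among the classical hypoxia targets, VEGFA (probe set 8119898), the angiogenic growth factor, had 827 with ethanol against 1206 in control 1, and 575 with acetaldehyde against 437 in control 2. It was lower with ethanol and higher with acetaldehyde than the matched control, at -0.54 and 0.40, and both exposed values lay between the controls. P4HA1, the partner isoform of P4HA2, was at 0.52 with ethanol, above both controls. The vasodilator peptide gene ADM (-0.16), the stress-induced NDRG1 (-0.15), the oxidoreductase of protein folding ERO1A (-0.18) and the histone demethylase KDM3A (0.15) were close to control 1. The mitophagy receptors BNIP3 and BNIP3L were at -0.07 and 0.03, and BNIP3L turned to -0.03 under joint normalization. Of the 32 members 19 had an ethanol value outside the range of both controls, against 63.3% of all kept genes, so that position alone does not set them apart.

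**Figure D2:**
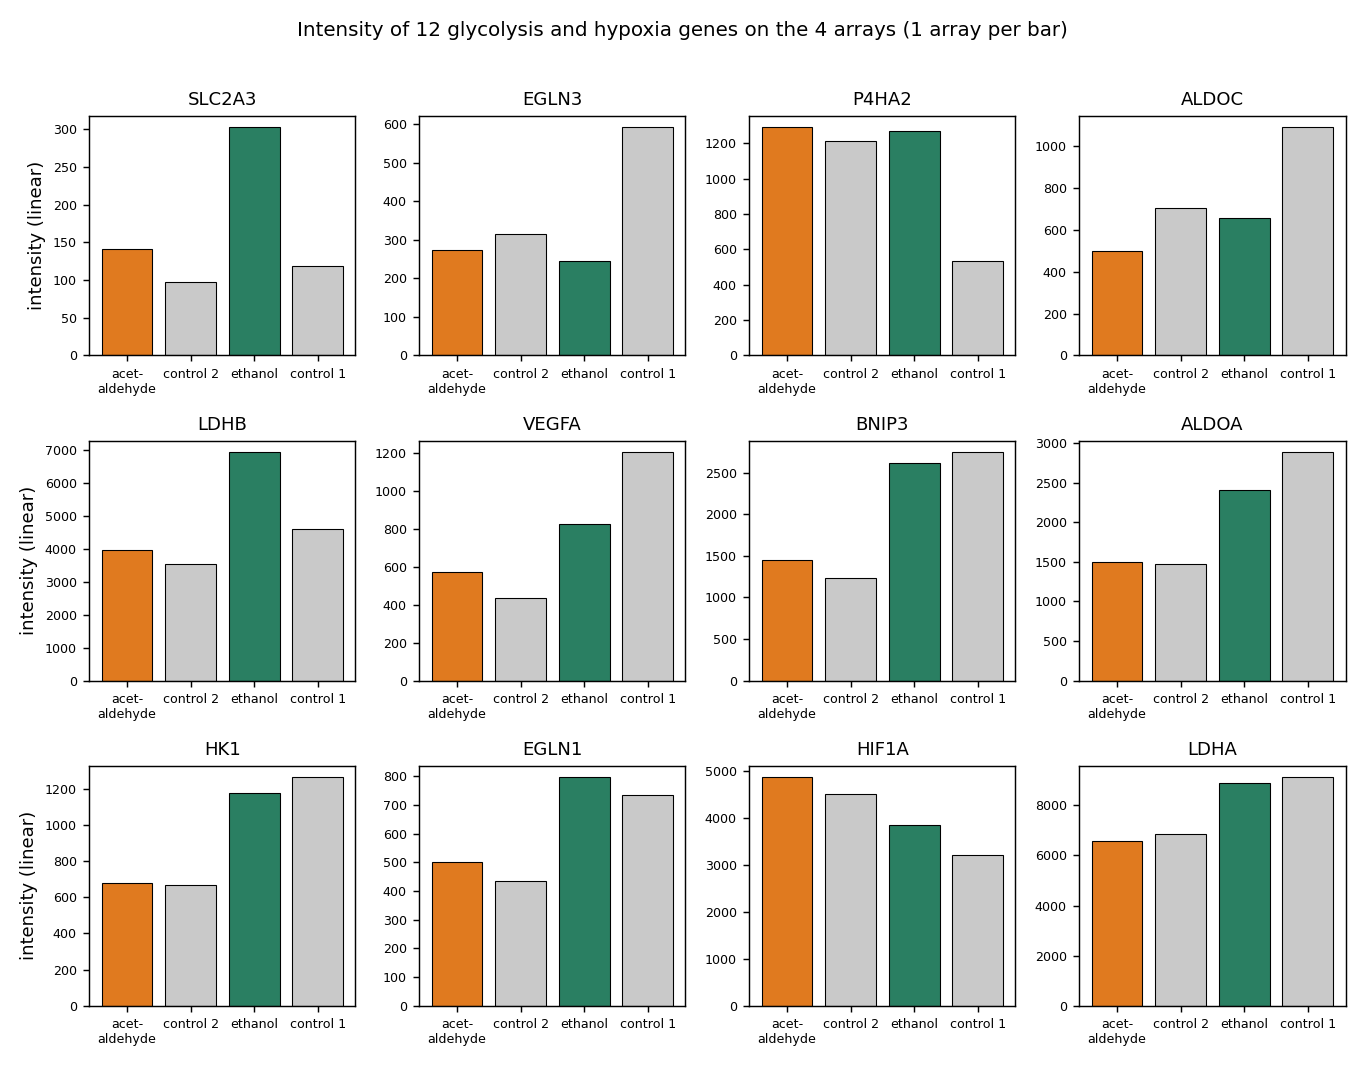
Intensity (linear scale, bars from 0) of 12 genes on the 4 arrays, 1 array per bar, each exposed array left of its own control. SLC2A3 is high on the ethanol array alone, EGLN3 and ALDOC are high and P4HA2 low in control 1, and VEGFA, BNIP3, ALDOA, HK1 and EGLN1 are higher in the ethanol pair than in the acetaldehyde pair.

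Because many of these genes are known HIF targets, their promoters were searched for the core of the hypoxia response element, ACGTG or GCGTG, on both strands, in windows of 300 bases from 250 before to 50 after the gene start (RefSeq, GRCh38.p14). For 33 of the 37 genes the RefSeq table held 61 such windows. A match was present in 67.2% of them, against 61.1% of the windows of kept genes and 48.4% of all 35116 windows. For ACGTG alone the shares were 39.3%, 25.7% and 21.4%, in the same order. Counted by gene, a match in at least 1 window was present for 90.9% of the 33 members, against 70.5% of 8393 kept genes, and an ACGTG match for 60.6% against 32.8%. A gene with more windows has more chances of a match, and the 33 members had 61 windows where the 8393 kept genes had 12118. Both motifs are short, and ACGTG overlaps the E-box CACGTG, which is a match on either strand. The windows of the 4 members with the largest ethanol differences that hold a match are shown with every match in capitals, since ALDOC and LDHB are the enzymes furthest from control 1 and P4HA1 and PDK1 lay on opposite sides of it. They lie at chr17:28576846-28577145 for ALDOC (minus strand, 5 matches, the E-box counted on both strands), chr12:21657793-21658092 for LDHB (minus strand, 1 match), chr10:73096817-73097116 for P4HA1 (minus strand, 1 match) and chr2:172555840-172556139 for PDK1 (plus strand, 2 matches, the second of 2 windows).
ALDOC: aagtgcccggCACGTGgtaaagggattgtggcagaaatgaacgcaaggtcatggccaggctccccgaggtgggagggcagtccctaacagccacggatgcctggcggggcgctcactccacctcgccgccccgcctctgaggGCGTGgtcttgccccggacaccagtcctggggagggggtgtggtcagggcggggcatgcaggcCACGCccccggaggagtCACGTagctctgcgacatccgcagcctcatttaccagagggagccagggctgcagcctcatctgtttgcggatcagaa
LDHB: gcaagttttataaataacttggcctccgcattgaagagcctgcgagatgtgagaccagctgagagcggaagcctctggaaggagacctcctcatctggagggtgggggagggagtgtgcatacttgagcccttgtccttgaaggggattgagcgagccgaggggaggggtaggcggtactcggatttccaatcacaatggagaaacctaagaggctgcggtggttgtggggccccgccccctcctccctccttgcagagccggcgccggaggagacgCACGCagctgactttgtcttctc
P4HA1: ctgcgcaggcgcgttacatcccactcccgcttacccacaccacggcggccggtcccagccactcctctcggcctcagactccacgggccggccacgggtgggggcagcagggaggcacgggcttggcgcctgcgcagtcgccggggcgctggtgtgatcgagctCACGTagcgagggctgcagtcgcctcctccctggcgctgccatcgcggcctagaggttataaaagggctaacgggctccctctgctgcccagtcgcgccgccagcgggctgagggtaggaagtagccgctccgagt
PDK1: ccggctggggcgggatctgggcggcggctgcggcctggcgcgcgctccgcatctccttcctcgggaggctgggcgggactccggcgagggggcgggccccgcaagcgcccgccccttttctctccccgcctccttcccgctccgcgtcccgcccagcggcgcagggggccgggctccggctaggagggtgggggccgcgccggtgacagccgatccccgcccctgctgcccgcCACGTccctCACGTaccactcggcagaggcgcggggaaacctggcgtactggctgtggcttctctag
The ALDOC window holds 3 ACGTG and 2 GCGTG matches, that of LDHB holds 1 GCGTG just after the gene start, and those of P4HA1 and PDK1 hold ACGTG alone. EGLN3 and P4HA2 had a window in the table with no match, while SLC2A3, VEGFA, NDRG1 and BNIP3L had no window and were not searched. ALDOC, with 5 matches, and PDK1, with 2, were lower with ethanol, and LDHB and P4HA1, with 1 each, were higher. Of the genes without a match, EGLN3 was lower and P4HA2 higher. A relation between matches and direction was not tested. A match is a description of these letters and not a bound site.

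With acetaldehyde all 32 kept members stayed within 1.5-fold of control 2. No member of 32 was 2-fold apart (background 0.241%) and none was 1.5-fold apart (background 1.72%). With backgrounds this low, few of any 32 genes would pass either fold, so these counts do not set the members apart. The 16 enzymes had 10 lower and 6 higher (49.3% and 50.7% of all kept genes) and a median of -0.04. Of the 16 other hypoxia genes 13 were higher and 3 lower, with a median of 0.13, against 0.00 over all kept genes. Their quartiles, 0.06 and 0.20, lay above those of the enzymes, -0.10 and 0.02. The exceptions among the other hypoxia genes were EGLN3, BNIP3L and SLC2A1. This gap between the groups was not tested, as it compares genes within 1 pair of arrays. Measured from control 1 in place of control 2, the median was -0.03 for the other hypoxia genes and -0.20 for the enzymes.

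The largest acetaldehyde differences were those of SLC2A3 (0.54) and ALDOC (-0.50), whose values on each array are given above, followed by VEGFA (0.40). For SLC2A3 both intensities lay below the filter of 155. BNIP3 (probe set 7937079), which tags mitochondria for removal, had 1451 with acetaldehyde against 1233 in control 2, and 2614 with ethanol against 2745 in control 1. Acetaldehyde was 0.23 above its own control, yet both arrays of that pair stood well below both arrays of the ethanol pair. EGLN1 (probe set 7925048) had 500.3 with acetaldehyde against 433 in control 2, and 796 with ethanol against 734 in control 1, which is 0.21 for acetaldehyde. EGLN3 was at -0.21, so EGLN1 and EGLN3 lay on opposite sides of control 2.

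The remaining 26 members were all within 0.20 of control 2, and 14 of them within 0.10. P4HA1 was at 0.19, LDHB at 0.16, PFKP at 0.15, KDM3A, PFKFB3 and ADM at 0.14, and NDRG1 at 0.13. PFKM was at -0.18, PFKL at -0.12 and ENO1 at -0.11. HK1 (0.02), ALDOA (0.01), TPI1 (0.03) and PDK1 (0.01) were so close to 0 that they turned below it under joint normalization. The second TPI1 probe set was at -0.13 with acetaldehyde. The acetaldehyde value lay outside the range of both controls for 16 of 32 members, against 54.9% of all kept genes.

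**Figure D3:**
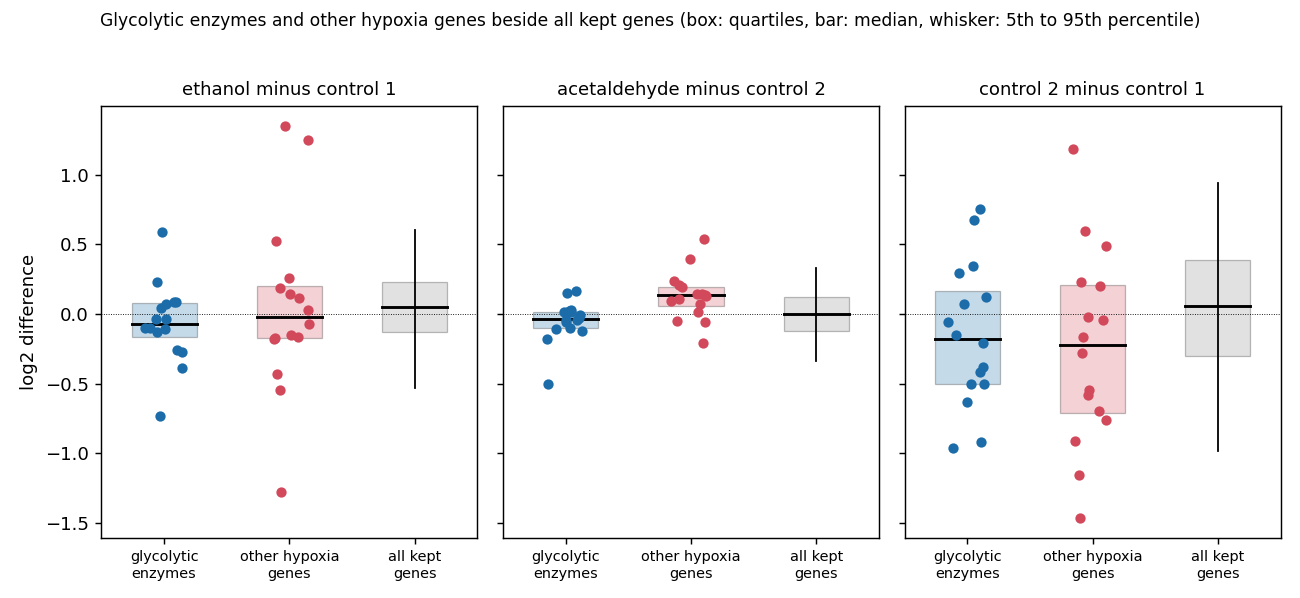
Log2 differences of the 16 kept enzymes and the 16 other kept hypoxia genes (points) in 3 comparisons, with boxes for the quartiles and bars for the median, beside all 10373 kept genes, whose whisker runs from the 5th to the 95th percentile. The group medians lie furthest apart with acetaldehyde, at -0.04 and 0.13, and both have medians below 0 between the controls, at -0.18 and -0.22.

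The unexposed cultures were themselves apart in many of these genes. Control 2 was lower than control 1 for 21 of 32 members, and higher for 11, where 45.5% of all kept genes were lower and 54.5% higher. The medians were -0.18 for the enzymes (10 of 16 lower) and -0.22 for the other hypoxia genes (11 of 16 lower), against 0.06 over all kept genes. Under joint normalization they were -0.24 (11 of 15 lower) and -0.32 (9 of 16 lower). VEGFA and BNIP3 below and P4HA2 above, 3 members in all, were at least 2-fold apart, and their share of 9.38% was near the 9.10% of all kept genes (4.25% higher, 4.85% lower). At 1.5-fold it was 12 of 32 (37.5%, background 27.9%). Control 1 also enters the ethanol comparison and control 2 the acetaldehyde comparison, so a deviation of either array would appear in both.

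VEGFA was furthest apart, 2.76-fold lower in control 2 (437) than in control 1 (1206), followed by P4HA2 at 1.19 and BNIP3, which was 2.23-fold lower. ALDOA (probe set 7994737) had 1478 in control 2 against 2883 in control 1, and 1492 with acetaldehyde and 2410 with ethanol. HK1 (probe set 7928019) had 669 in control 2 against 1264 in control 1, and 678 with acetaldehyde and 1174 with ethanol. For ALDOA, HK1 and BNIP3 the arrays grouped by experiment, and the exposed array stayed near its own control. EGLN3 was at -0.91 and EGLN1 at -0.76 in control 2, SLC2A1 at -0.70, BNIP3L at -0.58 and ERO1A at -0.54.

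Members of the route went both ways between the controls. Several later enzymes were lower in control 2, with PGK1 at -0.50, PKM at -0.50, LDHA at -0.41 and LDHB at -0.38, and the shared PGAM1 and PGAM4 probe sets lay between -0.98 and -0.83. All 3 phosphofructokinases were higher, PFKM at 0.75, PFKL at 0.34 and PFKP at 0.13, as were HK2 (0.29) and ENO2 (0.68). Hexokinase isozymes were thus 1.21 log2 units apart in their differences and enolases 0.73. HIF1A (0.49), ADM (0.60), NDRG1 (0.20) and PFKFB3 (0.23) were higher in control 2 as well. GAPDH, often taken as a constant reference, was at 0.07 in the deposited values and at -0.24 when the 4 arrays were normalized together, so its direction between the controls is not settled.

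Beside these differences, the summed intensity of the 7 epithelial markers was 21688 in control 2 against 26462 in control 1, with 5 of the 7 lower and 2 higher. KRT14 was at -1.68, CDH1 at -1.33, EPCAM at -1.21, KRT8 at -0.29 and KRT18 at -0.25, whereas KRT5 was at 0.12 and LAMB3 at 0.73. The summed intensity of the 13 non-epithelial markers was 2958 in control 2 against 2307 in control 1, with DCN at 2.34. Most of each sum was CD68, at 1917 in control 2 and 1622 in control 1. Only 3 of the 13 were kept, and the lower quartile of the array was 41.9 in control 2 against 29.9 in control 1. Within the pairs, 4 of the 7 epithelial markers were higher and 3 lower with ethanol, from KRT14 at -0.66 to LAMB3 at 1.35. With acetaldehyde 4 were higher and 3 lower too, from KRT14 at -0.95 to LAMB3 at 0.59. The part of these marker differences in the glycolysis and hypoxia values was not tested.

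Genes of the same pathways that are not members were read from lists that hold none of the 37. With ethanol, 13 of 19 kept genes of the other glycolysis list were higher and 5 lower (median 0.06), against 57.8% higher and a median of 0.05 over all kept genes, and PFKFB2 had the same value on both arrays. PDK4, which like PDK1 inhibits pyruvate dehydrogenase, led it at 1.38 (801 with ethanol against 308 in control 1), followed by the phosphoglucomutase PGM2 (-0.68), the mitochondrial pyruvate carrier subunit MPC2 (0.41) and PGM1 (0.36). PDK4 stood at 2969 with acetaldehyde and 3829 in control 2, so it was 3.64 log2 units higher in control 2 than in control 1. The 27 kept genes of the other hypoxia targets had a median of 0.03 and 2 genes past 2-fold (background 3.28%), the membrane protein gene TMEM45A (-2.40) and ANGPTL4 (2.35), an inhibitor of lipoprotein lipase. The transcriptional repressor BHLHE40 was at -0.78 and the lysyl hydroxylase PLOD1 at 0.74. Of the 12 kept HIF pathway components none reached 1.5-fold (background 9.66%), and the chaperone HSP90AA1 (0.44) and the HIF ubiquitin ligase subunit VHL (0.23) were furthest from control 1. The 6 kept pentose phosphate genes stayed within 0.23.

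With acetaldehyde none of these 4 lists had a gene 2-fold apart (background 0.241%). ANGPTL4 was at 0.95 (1228 with acetaldehyde against 633 in control 2), TMEM45A at -0.60, PLOD2 at 0.50, BHLHE40 at -0.45 and PDK2 at -0.43. The other hypoxia targets had 18 of 27 lower (background 49.3%), with a median of -0.06, whereas the 16 kept members outside the enzymes had a median of 0.13. The ubiquitin ligase subunit RBX1 (0.35) and the pentose phosphate enzyme RPE (0.37) led their lists. Between the controls, where 9.10% of all kept genes were 2-fold apart, the lists were wider, with the collagen crosslinking enzyme LOX at 2.93, the transferrin receptor TFRC at 2.33, the ubiquitin ligase subunit WSB1 at -1.84, TMEM45A at -1.51 and PDK2 at 1.24. HIF1AN, the asparaginyl hydroxylase that restrains HIF1A, was at -1.16, and EPAS1, the sister factor of HIF1A, at 0.69. The p53 target TIGAR, which slows glycolysis, was at -0.92.

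**Figure D4:**
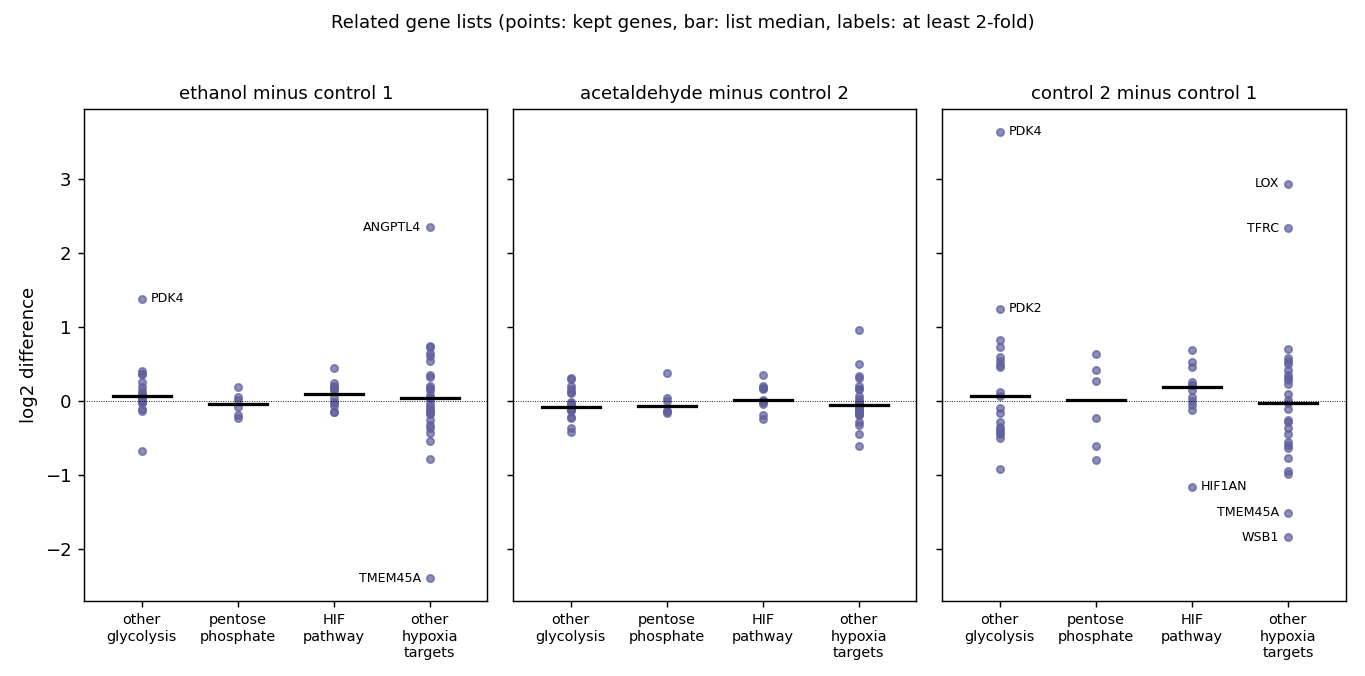
Log2 differences of the kept genes of 4 related lists that hold no member (points), with the list median as a bar and names for genes at least 2-fold apart. With ethanol PDK4, ANGPTL4 and TMEM45A stand out, no gene does at that size with acetaldehyde, and the differences between the controls are the widest, with PDK4 at 3.64 and LOX at 2.93.

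A single fit across all kept genes left an error term. It compared either exposure with its own control, with the experiment as a block (limma). The residual, with 1 degree of freedom, was the disagreement between ethanol and acetaldehyde. For each gene limma drew this error toward a value common to all genes, so an SE below is not the gene's own disagreement. No gene of 10373 passed an adjusted p of 0.05 (0%), and 1024 had an unadjusted p under 0.05. Of the 32 members 4 were under 0.05 before adjustment, and each had an adjusted p of 0.495 in limma. Their share was near that of the 1024 among all 10373 genes, so this count does not set the members apart. ALDOC had a mean log2 difference of -0.62 (SE 0.125), lower in both exposed arrays, and SLC2A3 one of 0.94 (SE 0.219), higher in both. EGLN3 was at -0.74 (SE 0.271) and P4HA1 at 0.36 (SE 0.136), each in the same direction in both pairs. Because disagreement is the error term, a gene with opposite directions could not reach an unadjusted p under 0.05 in this limma fit. The shared direction of these 4 genes thus follows from how they were picked. Ethanol and acetaldehyde are not replicates of 1 treatment, so this fit bears only on what the exposures share.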

How the data were processed

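The deposited values are linear intensities (3.13 to 22858), 1 for each probe set on each array. The submitters' processing notes name RMA, which corrects background, normalizes and summarises probes; the program behind it is not given in the sources used here. Identical values in 77 and 38 probe sets within the pairs, against 0 or 1 across them, go with separate normalization of the pairs. From the intensities, log2 values were computed with no offset. Of 33297 probe sets the platform annotation gave 1 symbol to 19460, several to 1754, and 12083 were unnamed here; 19429 matched RefSeq by gene ID. Genes whose highest value reached the median of all values of single-symbol probe sets (155) were kept. No columns of other samples were present (0). Differences between single arrays have no test. The blocked comparison was fitted with limma 3.58.1 under R 4.3.3 (lmFit, eBayes, Benjamini-Hochberg adjustment). The fit was tested on simulated data of 10373 genes, with the same shift in both exposures and no difference between the experiments. It recovered 68 of 100 shifts of 1 log2 unit and 99 of 100 shifts of 3 log2 units, with 11 false calls. These counts do not hold for a shift in 1 exposure alone. Values were printed for the 6 members with the largest difference in each comparison and for HIF1A, SLC2A1, LDHA, VEGFA and EGLN3, and up to 4 genes per related list, with other members by single differences. The members and lists were chosen with earlier results of these data known. Figures used matplotlib 3.10.9 in Python 3.11.15.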

Additional observations from a re-analysis of the deposited data

How the results depend on the processing

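The limma fit already pairs each exposure with its own control through the experiment block. Each group holds 1 array, so ethanol and acetaldehyde have 1 pair each, and no replicate could be left out. The alternatives were all run. Against the control of the other experiment the ethanol medians were 0.0911 for the enzymes and 0.34 for the other hypoxia genes, those of acetaldehyde were -0.20 and -0.0263, and 4 of 32 members (12.5%) were at least 2-fold apart with acetaldehyde, where there were 0, against 9.62% of all kept genes; with ethanol it was 2 of 32 (6.25%), against 8.78%. PDK4 with ethanol turned to -2.26 under that choice. At a 1.5-fold threshold 5 members were called with ethanol and 12 between the controls. Other settings were joint quantile normalization, centring, a pseudocount of 16, no filter, averaged probe sets and probe sets with several symbols. Leaving out HIF1A, EGLN1 and EGLN3 was a further one. None of these moved a group median by more than the SD between the controls, or a count of members by over 1.5 times. That SD rests on 2 arrays and was larger than every exposure median, so a median could reach 0 and still count as unmoved. Under these settings the ethanol medians ran from -0.12 to -0.04 for the enzymes and from -0.09 to -0.02 for the other hypoxia genes. Those of acetaldehyde ran from -0.07 to -0.04 and from 0.09 to 0.14. Keeping only genes above the filter on all 4 arrays, chosen after seeing the data, did not move those counts so far either. The limma count stayed at 0 under each setting run, with 85 genes and 0 members at an unadjusted p under 0.05 without the block. Joint normalization left ENO2 below the filter. Signal near background limits SLC2A3 and ENO2 most.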

Other observations

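The values of some further genes were chosen after they were seen and were not tested. PLOD1, a lysyl hydroxylase, had 1617 with ethanol against 967 in control 1, a log2 difference of 0.74, and was at 0.16 with acetaldehyde. PLOD2, another lysyl hydroxylase, had 1983 with ethanol against 1560 in control 1, and was at 0.35 with ethanol and 0.50 with acetaldehyde. The crosslinking enzyme LOX was at 0.60 with ethanol and -0.06 with acetaldehyde, and its relative LOXL2 at 0.18 and -0.18. Between the controls LOX was at 2.93, PLOD1 at 0.41, LOXL2 at -0.03 and PLOD2 at -0.94.

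The carbonic anhydrase CA12, a membrane enzyme that handles acid load, also chosen after its value was seen, was at 0.73 with ethanol (1569 against 943 in control 1) and at -0.15 with acetaldehyde (998 against 1106 in control 2).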
